A study of Mus musculus with 6 samples.

Results

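The 6 arrays of this study were divided by the intensity of a single probe for Hprt, the gene of hypoxanthine phosphoribosyltransferase, an enzyme that recycles purines. The Hprt-low arrays, with an intensity under 200, were those labelled KO-1, WT-1 and WT-2. The Hprt-high arrays, with an intensity over 1000, were those labelled KO-2, KO-3 and WT-3. Each set thus held 3 of the 6 arrays. Because the sets were defined by measured values and not by a treatment, every difference between them is given as a description, with no test. The split ran across the labels, with 1 KO array in the Hprt-low set and 2 in the Hprt-high set. It also followed the place of the arrays on their slide, positions A to C for the Hprt-low set and D to F for the Hprt-high set, so that set and slide position cannot be told apart.

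RNA was taken from mouse embryoid bodies on day 3 of differentiation and hybridised to Illumina bead arrays. The 3 samples labelled KO came from endoglin knockout embryonic stem (ES) cells and the 3 labelled WT from wild type E14 ES cells. The labels list the strain C57BL/6 for every sample, whereas E14 derives from another strain, a difference that the labels do not settle. How endoglin was disrupted, how many knockout clones were used and whether the replicates were separate cultures are not given in the labels, so any p-value reflects no more than the spread among these samples, which may be technical. The number of arrays limits the precision of every value.

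In embryoid bodies, pluripotent cells leave the epiblast-like state and form primitive streak and then mesoderm, much as in the gastrulating embryo. Bone morphogenetic proteins (BMPs), Wnt proteins and Nodal drive these steps, and the transcription factors Mesp1, Etv2 and Tal1 mark nascent mesoderm and the progenitors of blood and endothelium. Endoglin is a co-receptor for BMP and TGF-beta ligands on endothelium and on these progenitors. Hprt is X-linked, and Hprt-deficient sublines of E14 are in general use for gene targeting. Whether such a subline was used here is not given in the labels and was not tested.

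The deposited intensities had the same median of 45.1 and the same highest value of 32123 on every array, and each array had 49.7% to 50.7% of its 46632 probes brighter than its background limit. Differences between the sets are on a log2 scale after background correction and are Hprt-low minus Hprt-high. The correction shrinks differences of dim probes, so their folds are understated. Values of single arrays are deposited intensities, and within a set they follow the order KO-1, WT-1 and WT-2 or the order KO-2, KO-3 and WT-3.

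The targeted gene, Eng, did not follow the labels. Its brighter probe gave 73.5, 87.0 and 90.6 on the Hprt-low arrays, against 45.4, 48.7 and 44.4 on the Hprt-high arrays, a difference of 0.62. The array labelled KO-1 thus lay with the WT-1 and WT-2 arrays, above all the Hprt-high arrays, and the array labelled WT-3 was the lowest of the 6. A second Eng probe was not well above background on any array, at 35.4 to 43.4 on the Hprt-low arrays and 39.1 to 40.1 on the Hprt-high arrays. The files do not say which part of Eng was removed or where the probes lie relative to it.

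Hprt was the measure that made the sets. The probe used for the split gave 53.1, 60.5 and 41.7 on the Hprt-low arrays, against 2328, 2333 and 2553 on the Hprt-high arrays, a difference of -5.03. A second Hprt probe gave 39.7, 41.4 and 37.4 on the Hprt-low arrays, against 708, 824 and 773 on the Hprt-high arrays, and none of its Hprt-low values was well above background, so Hprt there was at least 11.7-fold lower in the Hprt-low set. The remaining probe, also not well above background in that set, gave 37.3, 37.1 and 43.2 on the Hprt-low arrays, against 106, 111 and 100.11 on the Hprt-high arrays, at least 1.90-fold lower. All 3 probes thus divided the arrays in the same way, with no overlap.

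The array also carries a probe that the deposited annotation names NeoR. Neomycin resistance genes are a usual selection marker in gene targeting. This probe, singled out after its values were seen, gave 40.2, 38.9 and 38.7 on the Hprt-low arrays, against 526, 452 and 476 on the Hprt-high arrays. It was not well above background on any Hprt-low array and was well above it on every Hprt-high array, at least 7.47-fold lower in the Hprt-low set. The array labelled KO-1 was thus as dark at this probe as WT-1 and WT-2, and the array labelled WT-3 as bright as KO-2 and KO-3. Of probes for other reporters, those for EGFP and Cre were not above background on any array, and that for GFP was above it on 1 array of each set. The luciferase probe was above background on 2 Hprt-low and 3 Hprt-high arrays, and its sets overlapped, with a difference of -0.028. Xist, the RNA that silences an X chromosome, gave 68.3, 64.8 and 66.4 on the Hprt-low arrays, against 64.2, 67.2 and 70.5 on the Hprt-high arrays, and its sets overlapped too.

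**Figure D1:**
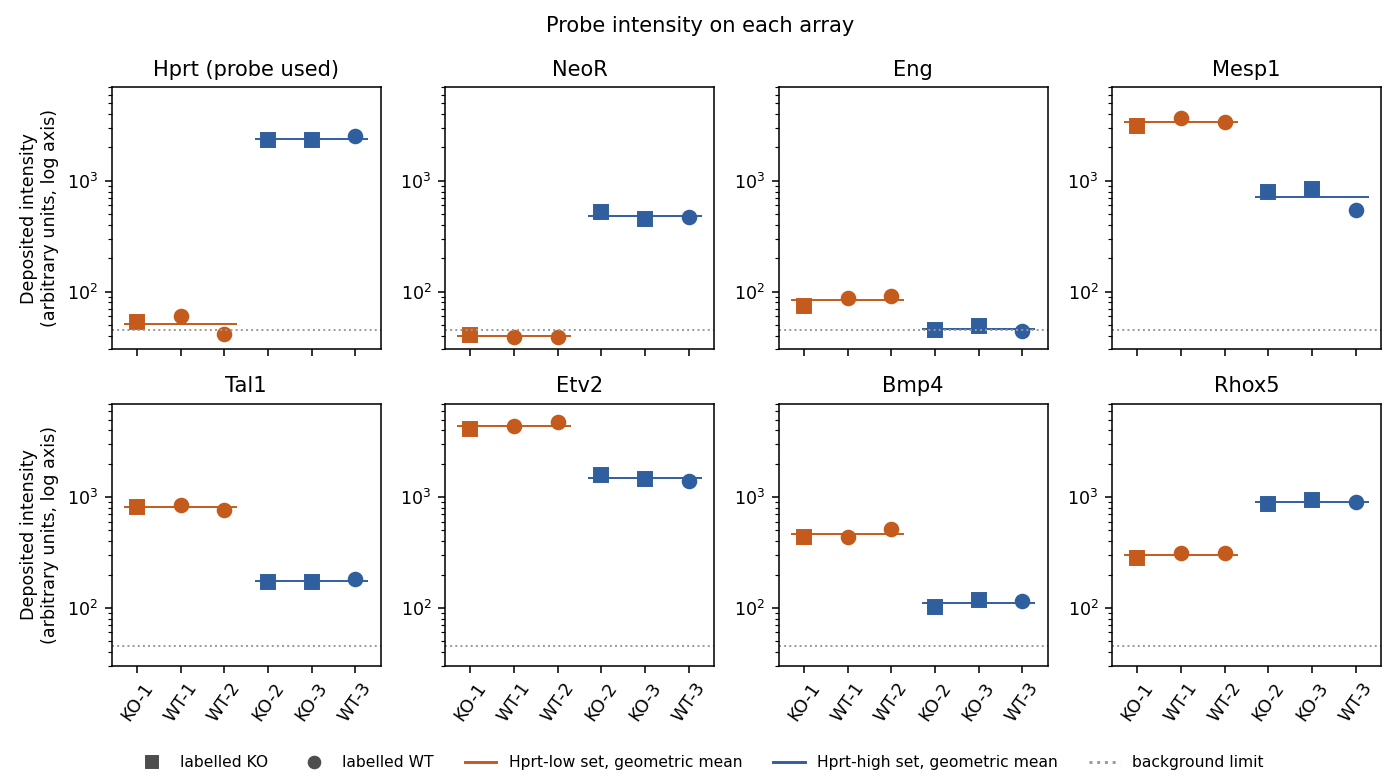
Deposited intensity (log axis) of 8 probes on each array, with the Hprt-low arrays in orange on the left and the Hprt-high arrays in blue on the right; squares are arrays labelled KO, circles those labelled WT, bars are geometric means of a set and the dotted line is the background limit. In each panel the array labelled KO-1 lies with the Hprt-low arrays and the array labelled WT-3 with the Hprt-high arrays, for example at 40.2 and 476 for NeoR. Hprt made the sets and NeoR was singled out after its values were seen. The probes were shown with earlier results known, so the panels are no separate support for the sets.

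The distance between the sets was large beside the distance within them. The comparison covered 17638 features, each above background on at least 3 arrays. They were 13583 named genes, with 1 probe per gene, and 4055 unnamed probes, each counted as its own feature. Any pair of arrays from different sets had 337 to 449 features at least 1.5-fold apart. Pairs within the Hprt-low set had 9 to 30, and pairs within the Hprt-high set had 4 to 7. At 2-fold, the counts were 79 to 104 between the sets, 0 to 2 within the Hprt-low set and 0 within the Hprt-high set.

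The sets did not overlap for 5124 features, 29.1% of all those compared, of which 2502 were higher and 2622 lower in the Hprt-low set. A feature is called separated here when the sets do not overlap and their means differ at least 1.5-fold. By that rule 194 features were higher in the Hprt-low set, a share of 1.10%, and 106 were lower, a share of 0.601%. Since the same contrast formed the sets, these shares serve only as the background for the counts in gene lists. The median difference over all features was -0.0075. At 2-fold, 68 were higher and 14 lower, and at 4-fold 8 were higher and 2, Hprt and NeoR, were lower. Of the separated features, 177 of the higher and 102 of the lower had a gene name. Of all features, 112 passed the filter on low values only through the Hprt-low arrays and 75 only through the Hprt-high arrays. Just inside the threshold were Tek, at 0.59, and Mylpf, at -0.59, and just outside it Slc7a7 and Rps4l, both at -0.58. Counts in the gene lists cover only members that passed the filter, for example 20 of 21 on the array for the primitive streak but 9 of 17 for paraxial mesoderm and 10 of 21 for Hox and Cdx genes.

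**Figure D2:**
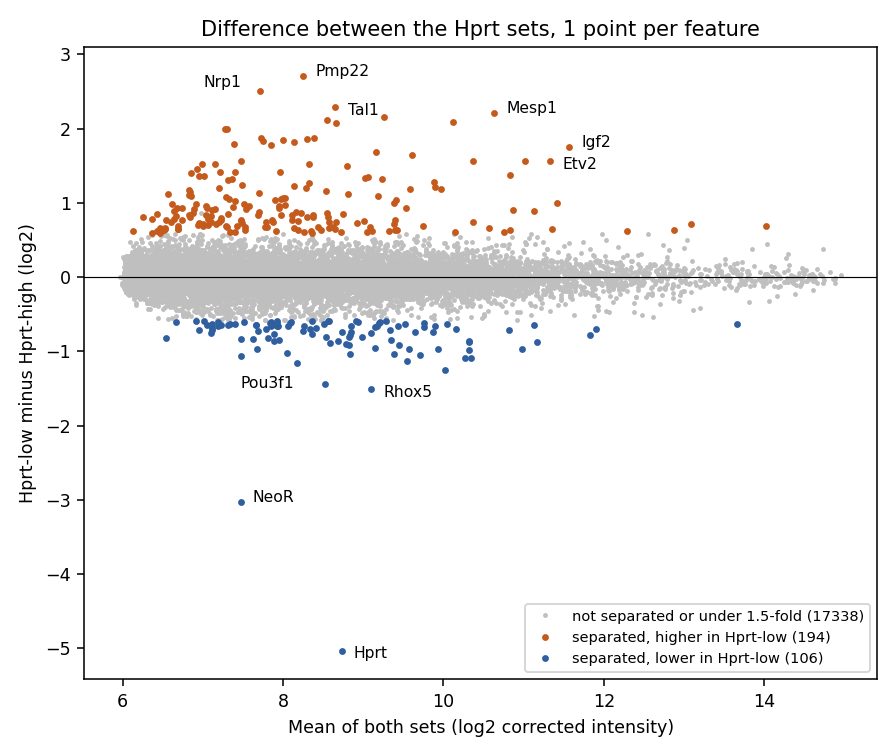
Difference between the Hprt sets (vertical axis, log2, Hprt-low minus Hprt-high) against the mean of both sets (horizontal axis, log2 corrected intensity) for 17638 features; separated features are orange where higher and blue where lower in the Hprt-low set. The 194 orange points reach 2.71 at Pmp22, whereas only Hprt and NeoR among the 106 blue points lie lower than Rhox5 at -1.51.

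Regulators of early mesoderm were higher in the Hprt-low set. Mesp1, which starts the programme of cardiovascular mesoderm, gave 3105, 3723 and 3379 on the Hprt-low arrays, against 797, 849 and 549 on the Hprt-high arrays, a difference of 2.20. Tal1, required for all blood formation, gave 807, 857 and 771 on the Hprt-low arrays, against 171, 171 and 181 on the Hprt-high arrays, a difference of 2.08. Etv2, an ETS factor required for blood and endothelial progenitors, gave 4103, 4382 and 4758 on the Hprt-low arrays, against 1593, 1465 and 1392 on the Hprt-high arrays, a difference of 1.56. In all 3 genes the lowest Hprt-low array was above the highest Hprt-high array by more than the range of either set. The RefSeq promoter windows of these genes are printed because the 3 genes differed together. Each holds the 250 bases before the start farthest upstream in the RefSeq table of build GRCm38.p6, 5′ to 3′ on the gene's strand, at chr7:79793591-79793840 (minus strand) for Mesp1, chr4:115056176-115056425 (plus strand) for Tal1 and chr7:30635853-30636102 (minus strand) for Etv2. Capitals mark matches on either strand to a GATA motif (GATAA), an E-box (CANNTG) or an ETS motif (CCGGAA), none of which overlap.
Mesp1: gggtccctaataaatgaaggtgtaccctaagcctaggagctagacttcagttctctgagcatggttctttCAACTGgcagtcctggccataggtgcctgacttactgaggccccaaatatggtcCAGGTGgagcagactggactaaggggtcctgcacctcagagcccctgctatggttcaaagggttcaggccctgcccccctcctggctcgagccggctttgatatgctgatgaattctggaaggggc
Tal1: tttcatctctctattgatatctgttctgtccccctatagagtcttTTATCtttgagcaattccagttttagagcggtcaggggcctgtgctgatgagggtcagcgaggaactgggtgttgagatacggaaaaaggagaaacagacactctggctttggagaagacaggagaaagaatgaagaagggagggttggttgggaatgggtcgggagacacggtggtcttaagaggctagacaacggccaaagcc
Etv2: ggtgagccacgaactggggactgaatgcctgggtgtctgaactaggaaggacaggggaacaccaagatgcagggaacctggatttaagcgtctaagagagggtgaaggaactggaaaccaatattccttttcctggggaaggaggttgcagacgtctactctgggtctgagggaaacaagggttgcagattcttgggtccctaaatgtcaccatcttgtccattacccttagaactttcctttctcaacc
The Mesp1 window held 2 E-boxes, the Tal1 window 1 GATA motif and the Etv2 window none of the 3. Among 27025 promoters of the table, 23.0% held the GATA motif, 66.1% the E-box and 12.3% the ETS motif. Among 125 genes higher in the Hprt-low set that matched the table, the shares were 16%, 51.2% and 11.2%. Among 78 matched genes lower in that set, they were 6.41%, 59.0% and 15.4%. A match of letters is a description and not a binding site.

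Of 20 measured genes of primitive streak and mesendoderm, 6 were separated with higher values in the Hprt-low set and 1 with lower ones, and the list median was 0.34. Besides Mesp1, Tbx6, a T-box factor of presomitic mesoderm, gave 474 to 555 on the Hprt-low arrays, against 141 to 185 on the Hprt-high arrays (1.52). A second Tbx6 probe differed by 0.40, under the threshold. Evx1, a homeobox gene of the posterior streak, gave 2737 to 3027 on the Hprt-low arrays, against 963 to 1183 on the Hprt-high arrays (1.38). Lhx1, a LIM homeobox gene of the anterior streak and its mesoderm, gave 2957 to 3185 on the Hprt-low arrays, against 1435 to 1767 on the Hprt-high arrays (0.89). T, the pan-mesodermal Brachyury factor, did not reach the threshold, with 5612, 5052 and 5323 on the Hprt-low arrays, against 4316, 4157 and 3591 on the Hprt-high arrays (0.41). T and Pou5f1, markers of the labelled stage, were above background on every array. Eomes, a T-box factor of the early streak, differed by 0.097 and Mixl1, a homeobox gene of mesendoderm, by 0.61. The member separated in the other direction was Foxa2, a factor of the anterior streak and endoderm, with 269 to 311 on the Hprt-low arrays, against 525 to 539.6 on the Hprt-high arrays (-0.85). In bulk RNA, fewer cells of a type and less RNA per cell cannot be told apart, here and in every list that follows.

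Of 18 measured genes of haemangioblast and blood, 5 were separated, all higher in the Hprt-low set, and the list median was 0.18. Gata2, a zinc finger factor of blood progenitors, gave 268, 338 and 267 on the Hprt-low arrays, against 71.1, 69.2 and 61.0 on the Hprt-high arrays (1.80). Lmo2, the bridging protein in Tal1 complexes, gave 864, 853 and 768 on the Hprt-low arrays, against 405, 356 and 373 on the Hprt-high arrays (1.09). Fli1, an ETS factor of blood and endothelium, differed by 0.81. Runx1, required for definitive blood stem cells, was not well above background on any Hprt-high array and was at least 1.15-fold higher in the Hprt-low set, under the threshold. Zfpm1, whose protein FOG-1 is the cofactor of Gata1, is not in that list and gave 2318, 2148 and 2369 on the Hprt-low arrays, against 511, 557 and 486 on the Hprt-high arrays (2.09). Genes that act later in red cells were not separated. None of 7 measured genes of the globin and haem list was separated, with a median of 0.024 and 0.16 for the embryonic globin Hbb-bh1.

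Of 20 measured genes of endothelium, 9 were separated, all higher in the Hprt-low set, with a list median of 0.37. Klhl6, best known in B cells, gave 1169.8, 1364 and 1294 on the Hprt-low arrays, against 274, 299 and 235 on the Hprt-high arrays (2.15). A second Klhl6 probe differed by 0.47, under the threshold. Esam, an adhesion molecule of endothelial junctions, gave 222 to 271 on the Hprt-low arrays, against 107 to 123 on the Hprt-high arrays (0.96). Flt1, a VEGF receptor, gave 400.2 to 448 on the Hprt-low arrays, against 199.97 to 239 on the Hprt-high arrays (0.83), and the endothelial factor Sox7 gave 79.7 to 105 on the Hprt-low arrays, against 37.0 to 45.2 on the Hprt-high arrays (0.85). The rest of the separated members were Cdh5, Sox17, Sox18, Tek and Eng itself. Kdr, the VEGF receptor that marks the haemangioblast, was not among them, with 108, 84.1 and 111 on the Hprt-low arrays, against 119.8, 91.2 and 130.2 on the Hprt-high arrays, a difference of -0.14. Nrp1, a co-receptor for VEGF and semaphorins, had the largest difference after Pmp22 among features higher in the Hprt-low set, with 483, 501 and 445 on the Hprt-low arrays, against 57.8, 70.7 and 66.8 on the Hprt-high arrays (2.50).

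Of 18 measured genes of cardiac and lateral plate mesoderm, 7 were separated, all higher in the Hprt-low set, with a list median of 0.36. Isl1, a homeobox factor of second heart field progenitors, gave 183, 184 and 186 on the Hprt-low arrays, against 64.3, 52.6 and 57.0 on the Hprt-high arrays (1.36). Myl7, an atrial myosin light chain, gave 165, 229 and 187 on the Hprt-low arrays, against 51.4, 49.5 and 55.2 on the Hprt-high arrays (1.52). Gata6, a zinc finger factor of cardiac mesoderm and endoderm, gave 1324 to 1530.2 on the Hprt-low arrays, against 492 to 642 on the Hprt-high arrays (1.27). Hand1, of lateral and extraembryonic mesoderm, was not well above background on any Hprt-high array and was at least 1.27-fold higher in the Hprt-low set. It passed the filter only through the Hprt-low arrays and counts as separated by its difference of 0.62, not by that bound. Another myosin light chain, Myl4, gave 116 to 144 on the Hprt-low arrays, against 60.8 to 63.6 on the Hprt-high arrays (0.83). The cardiac factor Nkx2-5, at 0.29, and the cardiac actin Actc1, at 0.16, were not separated.

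Of 9 measured genes of paraxial mesoderm, 2 were separated, both higher in the Hprt-low set, with a list median of 0.36. They were Tbx6 and Pdgfra, a receptor for platelet-derived growth factor, whose main probe gave 491, 524 and 500.3 on the Hprt-low arrays, against 124, 131 and 126 on the Hprt-high arrays (1.81). A second Pdgfra probe overlapped between the sets, with a difference of -0.022. Of 10 measured genes of the Hox and Cdx families, 2 were separated, both higher in the Hprt-low set, with a median of 0.16. Hoxb2, an anterior Hox gene, gave 203 to 244 on the Hprt-low arrays, against 64.5 to 103 on the Hprt-high arrays (1.31), and Cdx2, a factor of posterior mesoderm and trophoblast, gave 281 to 361 on the Hprt-low arrays, against 137 to 172 on the Hprt-high arrays (0.93).

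The list of BMP targets and modulators had the highest median of the 31 lists. It shares Gata2, Gata3 and Tbx3 with other lists, and signalling itself was not measured. Among ligands, Bmp4, which induces mesoderm and blood, gave 439, 434 and 515 on the Hprt-low arrays, against 101, 118 and 116 on the Hprt-high arrays (1.85). A dimmer Bmp4 probe was not well above background on any Hprt-high array and was at least 1.36-fold higher in the Hprt-low set. Of 14 measured genes among BMP targets and modulators, 9 were separated, all higher in the Hprt-low set, and the list median was 0.96. Bmper, a secreted BMP-binding protein, gave 271, 298 and 305 on the Hprt-low arrays, against 49.8, 68.4 and 51.6 on the Hprt-high arrays (1.99). Tbx3, a T-box factor, gave 356, 402 and 385 on the Hprt-low arrays, against 84.9, 99.99 and 78.5 on the Hprt-high arrays (1.87), and Gata3, a zinc finger factor, gave 179, 186 and 172 on the Hprt-low arrays, against 50.7, 57.7 and 44.1 on the Hprt-high arrays (1.46). A second Tbx3 probe differed by 0.47, under the threshold. Msx1, a homeobox target of BMP, differed by 1.35. The Id genes, direct targets of BMP Smads, did not differ alike, with 0.99 for Id1, -0.17 for Id2 and 0.23 for Id3. Chrd, which encodes the secreted BMP antagonist chordin and is not in the list, lay the other way, with 636, 613 and 718 on the Hprt-low arrays, against 1659.7, 1582 and 1508 on the Hprt-high arrays (-1.25).

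Among 26 measured ligands, receptors and Smads of the TGF-beta family, 6 were separated with higher values in the Hprt-low set and 1 with lower ones, with a median of 0.080. Lefty2, a secreted inhibitor of Nodal, gave 968, 988 and 1063 on the Hprt-low arrays, against 292, 311 and 289 on the Hprt-high arrays (1.68), while Nodal itself differed by -0.41 and Lefty1 by -0.21. Tgfb2, a ligand, gave 137 to 154 on the Hprt-low arrays, against 42.9 to 59.97 on the Hprt-high arrays (1.17), and Gdf3, a Nodal-related ligand of pluripotent cells, gave 156 to 169 on the Hprt-low arrays, against 278 to 331 on the Hprt-high arrays (-0.85). No receptor other than the co-receptor Eng was separated. The type I BMP receptor Bmpr1a differed by 0.19, the type II receptor Bmpr2 by 0.063 and the TGF-beta co-receptor Tgfbr3 by -0.54. Smad1, a BMP-responsive Smad, gave 1068 to 1217 on the Hprt-low arrays, against 479.8 to 492 on the Hprt-high arrays (1.18) with its brightest probe, but its other probes differed by 0.055, 0.43 and -0.062.

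Among 23 measured Wnt ligands, targets and feedback inhibitors, 5 were separated with higher values in the Hprt-low set and 1 with lower ones, with a median of 0.45. Wnt5a, a ligand that acts mostly without beta-catenin, gave 324, 286 and 255 on the Hprt-low arrays, against 51.4, 57.1 and 55.4 on the Hprt-high arrays (2.00). Its other probes differed by 1.05 and 0.39, the latter under the threshold. Rspo3, a secreted enhancer of Wnt signalling, gave 889.9, 946 and 964 on the Hprt-low arrays, against 383, 364 and 333 on the Hprt-high arrays (1.32). Wnt8a, a ligand of the early streak, lay the other way, with 350.5, 348 and 376 on the Hprt-low arrays, against 635, 698 and 606 on the Hprt-high arrays (-0.81). Axin2, a common target of beta-catenin, differed by 0.45 and Lef1, its nuclear partner, by 0.51, both under the threshold. Wnt2b, a ligand, differed by 0.93 with its main probe and by -0.0068 with another.

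Fibroblast growth factors lay on both sides of 0. Of 14 measured genes of the pathway, 2 were separated with higher and 1 with lower values in the Hprt-low set, with a median of 0.025. Fgf10, a ligand of limb and heart mesoderm, gave 736, 812 and 719.7 on the Hprt-low arrays, against 143, 175 and 152 on the Hprt-high arrays (2.12), and Fgf3 gave 90.3 to 134 on the Hprt-low arrays, against 48.9 to 58.9 on the Hprt-high arrays (0.78). Fgf5, a ligand of the primed epiblast, gave 1471, 1320.2 and 1377 on the Hprt-low arrays, against 2342, 2319.5 and 2183 on the Hprt-high arrays (-0.71), and Fgf8, a ligand of the streak, differed by -0.29. Of 13 measured genes of the Notch pathway, 2 were separated, with a median of 0.087. They were the Notch and BMP target Hey1, with 316 to 355 on the Hprt-low arrays, against 130.0 to 174 on the Hprt-high arrays (1.06), and the feedback regulator Nrarp, with 591 to 609 on the Hprt-low arrays, against 335 to 371 on the Hprt-high arrays (0.73).

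Of the 20 naive pluripotency genes measured, 18 lay lower in the Hprt-low set, by any amount. Of these genes, 5 were separated with lower values and 1, Tbx3, with higher ones, and the list median was -0.27. Over all features the median difference was -0.0075, so lying lower by any amount was in itself common. Utf1, a chromatin factor of ES cells, gave 169.7, 154 and 186 on the Hprt-low arrays, against 409, 379.7 and 434 on the Hprt-high arrays (-1.16). Dppa4, a nuclear protein of pluripotent cells, gave 847, 831 and 798 on the Hprt-low arrays, against 1829.9, 1647 and 1856 on the Hprt-high arrays (-1.08). Sox2, a core factor of pluripotency, gave 93.1, 91.7 and 93.7 on the Hprt-low arrays, against 159, 161 and 159 on the Hprt-high arrays (-0.65). With general pluripotency genes such as Sox2 and Dppa4 in it, the list is not a measure of the naive state alone. Pou5f1, the gene of OCT4, gave 3005, 2938 and 3373 on the Hprt-low arrays, against 4687, 4352 and 4423 on the Hprt-high arrays (-0.53) and so did not overlap but missed the threshold, and Nanog differed by -0.25. Of 11 measured genes of the primed epiblast, 2 were separated, both lower in the Hprt-low set, with a median of -0.29. They were Fgf5 and Pou3f1, a POU factor of epiblast and neural progenitors, with 204, 204 and 191 on the Hprt-low arrays, against 631, 505 and 612 on the Hprt-high arrays (-1.44).

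**Figure D3:**
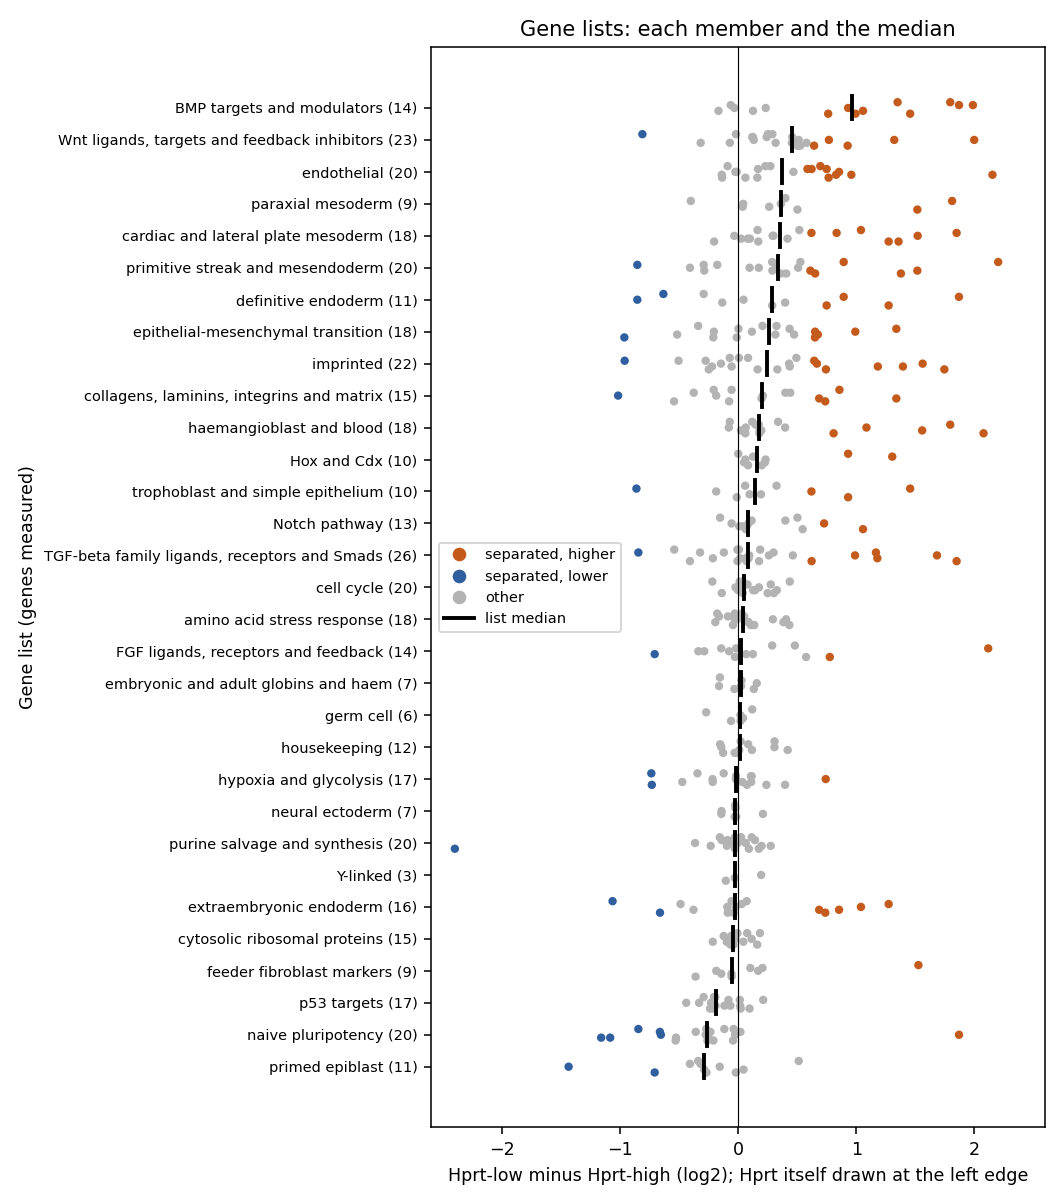
Difference between the Hprt sets (log2, Hprt-low minus Hprt-high) of every measured member of the 31 gene lists, with orange points separated and higher, blue points separated and lower in the Hprt-low set, and a black bar at each list median. The medians run from -0.29 for primed epiblast at the bottom to 0.96 for BMP targets and modulators at the top; Hprt is drawn at the left edge, beyond the scale.

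Of 11 measured genes of definitive endoderm, 4 were separated with higher and 2 with lower values in the Hprt-low set, with a median of 0.29. This median was 0.16 without the array labelled WT-3 and 0.19 without WT-1, and relative to each gene's mean the list median of WT-2, at -0.027, lay close to that of KO-3, at -0.057. Cxcr4, a chemokine receptor of endoderm and mesoderm, gave 614, 641 and 589 on the Hprt-low arrays, against 151, 160.4 and 143 on the Hprt-high arrays (1.87). Foxa2 and Trh, the gene of thyrotropin-releasing hormone, were the members that were lower. Of 18 measured genes of the epithelial-mesenchymal transition, 5 were separated with higher and 1 with lower values, with a median of 0.26. Fn1, the gene of fibronectin, gave 853, 701 and 877 on the Hprt-low arrays, against 333, 315 and 269 on the Hprt-high arrays (1.34), and Vim, the mesenchymal intermediate filament, gave 3621, 4269 and 3596 on the Hprt-low arrays, against 1966, 1793 and 1967 on the Hprt-high arrays (0.99). Cldn4, an epithelial tight junction protein, gave 121, 123 and 126 on the Hprt-low arrays, against 315, 244 and 233 on the Hprt-high arrays (-0.96), while Cdh1, the epithelial cadherin, differed by -0.21. Cdh2, the mesenchymal cadherin, differed by 0.67 with its main probe and by -0.023 and 0.57 with others. Of 15 measured genes of the matrix and its receptors, 4 were separated with higher values, among them the hyaluronan synthase Has2 (0.86) and the basement membrane collagen Col4a1 (0.74). A single member, the laminin receptor Itga3, was separated with lower values, 162 to 165 on the Hprt-low arrays, against 309.8 to 385 on the Hprt-high arrays (-1.02), and the list median was 0.20.

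Of 22 measured genes among imprinted genes, 7 were separated with higher and 1 with lower values in the Hprt-low set, with a median of 0.25. Igf2, a fetal growth factor, gave 5679, 5357 and 5563 on the Hprt-low arrays, against 1618, 1640.4 and 1638 on the Hprt-high arrays (1.75), a gap between the sets many times the range within either. H19, the non-coding RNA of the same locus, gave 182, 159 and 151 on the Hprt-low arrays, against 48.8, 48.4 and 47.1 on the Hprt-high arrays (1.40). Phlda2, a growth-restricting gene of the placenta, gave 3302, 3497 and 3882 on the Hprt-low arrays, against 1277, 1253 and 1046 on the Hprt-high arrays (1.56), and Peg3, a zinc finger gene, gave 1599, 1494 and 1373 on the Hprt-low arrays, against 552, 722 and 661 on the Hprt-high arrays (1.18). The member separated in the other direction was Mest, at -0.96. Meg3, of the Dlk1 locus, differed by -0.51, and Dlk1 by 0.49.

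Many of the largest differences lay outside these pathways. Pmp22, a membrane protein of myelin, gave 670.2, 844 and 760.1 on the Hprt-low arrays, against 106, 98.0 and 86.1 on the Hprt-high arrays (2.71), the largest difference of any gene that was higher in the Hprt-low set. Hs3st3b1, a heparan sulphate sulphotransferase, gave 886, 844 and 869 on the Hprt-low arrays, against 169, 186 and 125 on the Hprt-high arrays (2.29), although its 3 dimmer probes differed by 0.12 to 0.59. Adra2b, an adrenergic receptor, gave 576, 612 and 549 on the Hprt-low arrays, against 156, 143 and 131 on the Hprt-high arrays (1.86), and Vldlr, a lipoprotein and reelin receptor, gave 384, 399 and 368 on the Hprt-low arrays, against 97.6, 90.1 and 87.6 on the Hprt-high arrays (1.83). In the other direction, Rhox5, an X-linked homeobox gene, gave 282, 310.1 and 314 on the Hprt-low arrays, against 861, 941 and 910.4 on the Hprt-high arrays (-1.51). Dnmt3l, the cofactor of de novo DNA methyltransferases, gave 498, 426 and 523 on the Hprt-low arrays, against 1116, 1097 and 1027 on the Hprt-high arrays (-1.13). Slc7a3, a cationic amino acid transporter, gave 905, 819 and 886 on the Hprt-low arrays, against 1752, 1741 and 2145 on the Hprt-high arrays (-1.09), but a second probe for it differed by -0.052. The remaining genes among the 15 largest that were lower were Amn (-1.06), the fatty acid binding protein Fabp3 (-1.06), Prob1 (-1.04), Prrg3 (-1.03), the phosphatase inhibitor Ppp1r1a (-0.98) and the receptor adaptor Grb7 (-0.97). Among genes with the widest gap relative to the range within a set were also the calcium pump Atp2a3, with 137 to 142 against 227 to 232, and the glutamate transporter Slc1a3, with 167 to 172 against 249 to 252, in the Hprt-low against the Hprt-high arrays. Another probe overlapped between the sets for Vldlr (0.0057), Prob1 (-0.11) and the ligand Tgfb2 (0.26). For some separated genes of the lists, a dimmer probe kept the direction without overlap but fell under the threshold. These were Fn1 (0.52), Peg3 (0.38), Sox7 (0.18), Egln3 (0.12), Sox2 (-0.17) and Pdk1 (-0.33).

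**Figure D4:**
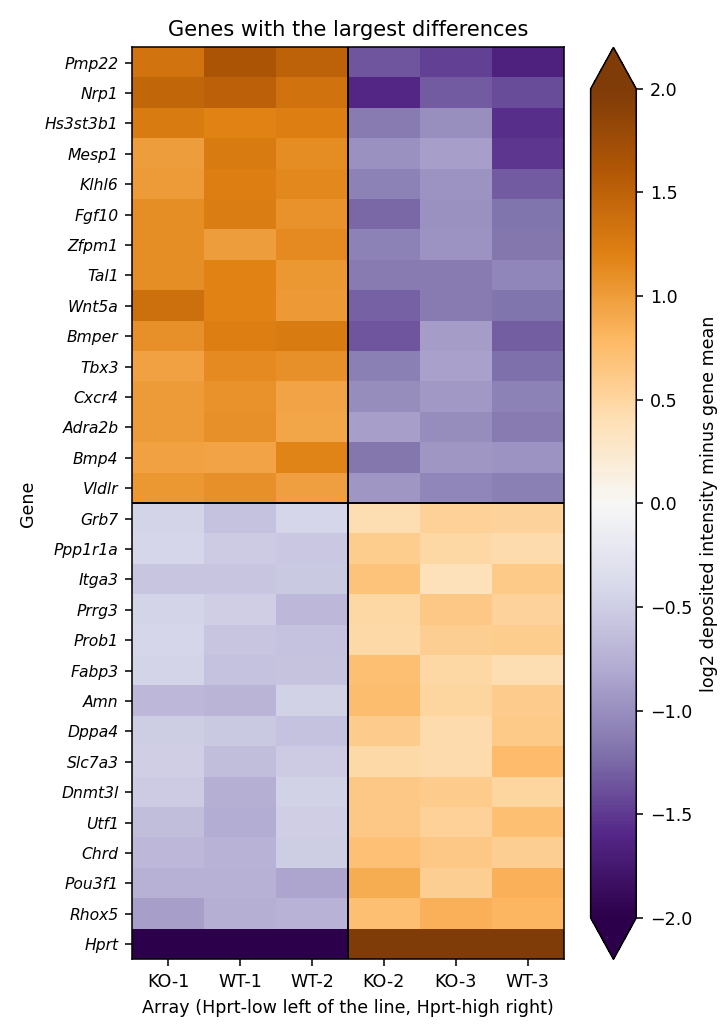
Log2 deposited intensity minus the gene's mean over all 6 arrays, for the 15 named genes with the largest difference in each direction among those whose sets do not overlap. The Hprt-low arrays are left of the vertical line and the Hprt-high arrays right of it, and orange is above and purple below the mean. Because of that choice no row can mix the sets. The colour scale ends at 2 and -2, which Hprt exceeds.

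The lists of metabolism, growth, stress and housekeeping were counted in the same way. Apart from Hprt, none of 20 measured genes of purine salvage and synthesis was separated, and the median with Hprt included was -0.027. Aprt, the adenine counterpart of Hprt, differed by 0.20, Ppat, which starts purine synthesis, by 0.064 and Prps1, which makes the substrate that Hprt uses, by -0.026. None of 20 cell cycle genes was separated (median 0.047, but 0.093, 0.084 and 0.078 without WT-1, KO-2 or WT-2), with 0.44 for the imprinted inhibitor Cdkn1c and 0.33 for Top2a. None of 17 p53 targets was separated (median -0.19). Of these, 12 lay below 0, and 9 did not overlap between the sets, among them Phlda3, at -0.44, and Zmat3, at -0.33. Over all features, 29.1% did not overlap, and the median difference was -0.0075. None of 18 stress response genes was separated (median 0.040), with Chac1 at 0.43 and Slc7a5 at 0.41. In hypoxia and glycolysis, 1 of 17 genes was separated with higher values, the oxygen sensor Egln3 (0.74), and 2 with lower ones, Pdk1 (-0.74) and Ndrg1 (-0.73). None of 15 ribosomal protein genes (median -0.041) and none of 12 housekeeping genes (median 0.015) was separated. Within these, Rps19 differed by -0.21, Rplp0 by 0.18, B2m by 0.31 and Polr2a by 0.42.

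Markers of other cells were summed on each array, and their part in the differences was not tested. The summed intensity of 9 feeder fibroblast markers was 1001 to 1055 on the Hprt-low arrays, against 863 to 923 on the Hprt-high arrays. A single one, the matrix gene Fbln2, was separated, with 228, 227 and 203 on the Hprt-low arrays, against 63.6, 60.9 and 58.6 on the Hprt-high arrays (1.53), but a second Fbln2 probe differed by -0.021. With a list median of -0.056, the sums do not show a difference shared by these markers. The sum of 16 markers of extraembryonic endoderm was 4500.2 to 4935 on the Hprt-low arrays, against 3390.4 to 3583 on the Hprt-high arrays, with 5 separated higher and 2 lower. The higher ones were Gata4 (1.04), Gata6, Sox7, Col4a1 and Col4a2, which mesoderm and endothelium also express, and the lower ones were Amn and the endocytic adaptor Dab2 (-0.66), while Afp, the yolk sac plasma protein, differed by -0.089. The sum of 10 trophoblast and simple epithelial markers was 4643 to 4927 on the Hprt-low arrays, against 4094 to 4351 on the Hprt-high arrays, with 3 separated higher, Gata3, Cdx2 and Hand1, and 1 lower, the keratin Krt7 (-0.86). Hand1 passed the filter only through the Hprt-low arrays, and its bounded fold of 1.27 is under the threshold. The sum of 7 neural markers was 467 to 504 on the Hprt-low arrays, against 475 to 501 on the Hprt-high arrays, with none separated and 0.21 for Nes and -0.14 for Sox21. The median and the mean differed in sign for feeder markers (-0.056 and 0.13), extraembryonic endoderm (-0.030 and 0.11), germ cells (0.020 and -0.022), globins (0.024 and -0.00090) and Y-linked genes (-0.028 and 0.020). None of 6 germ cell genes was separated, with -0.27 for Dppa3 and 0.12 for Kit. None of 3 measured Y-linked genes was separated, with 301, 371 and 242 on the Hprt-low arrays, against 320.3, 290.0 and 368 on the Hprt-high arrays for Eif2s3y and 0.19 for Uty.

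Position on the chromosomes was not used to form the sets, but the values by chromosome are of the same contrast. Of 721 measured genes on chromosome 8, 507, or 70.3%, lay higher in the Hprt-low set. The median difference of all 721 was 0.080, beside -0.0075 over all features. Relative to each gene's mean, the chromosome 8 median was 0.036, 0.041 and 0.053 on the Hprt-low arrays, against -0.038, -0.047 and -0.047 on the Hprt-high arrays. Chromosome 8 had the largest median difference of the chromosomes, so the place of the arrays labelled KO-1 and WT-3 here is no separate support for the sets. Chromosome 11 had a median of 0.033, with 61.5% of its genes higher in the Hprt-low set, whereas chromosome 15 had -0.043 with 35.5% and chromosome 17 had -0.030 with 37.1%. On the X chromosome 51.4% of 481 genes lay higher. The share of separated genes ranged from 0.916% on chromosome 17 to 3.92% on chromosome 18, with 2.77% on chromosome 8.

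**Figure D5:**
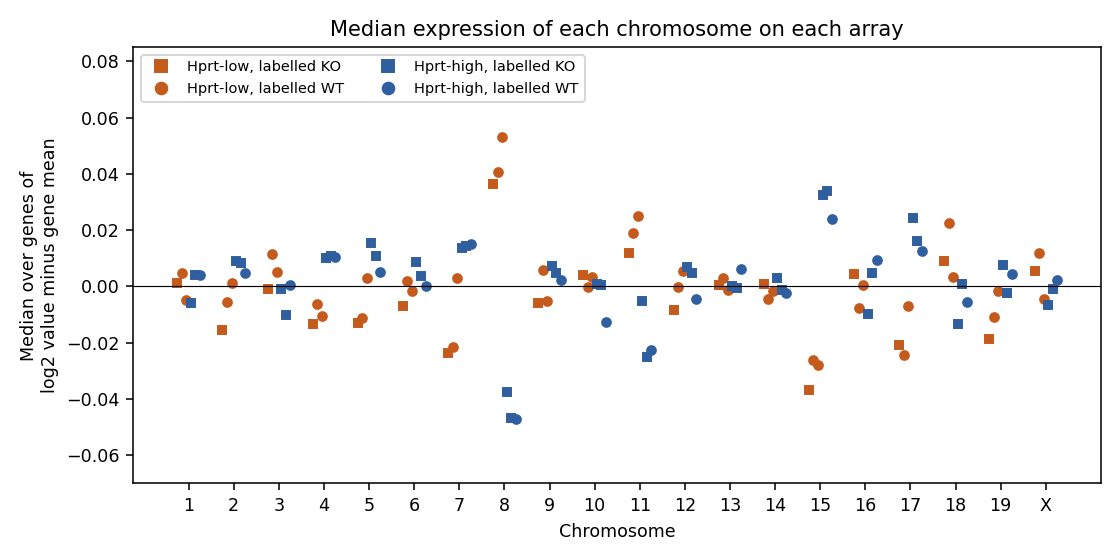
Median over the genes of each chromosome of the log2 value minus the gene's mean, for each array, with the Hprt-low arrays in orange left of the Hprt-high arrays in blue; squares are labelled KO and circles WT. On chromosome 8 the Hprt-low arrays lie at 0.036 to 0.053 and the Hprt-high arrays at -0.047 to -0.038, the widest split of the chromosomes drawn.

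The genes beside Hprt on the X chromosome did not share its difference. Of the 5 measured genes on each side, the nearest were Phf6 (0.22), a chromatin protein, and Fam122b (0.26). Gpc3, a glypican that restrains growth, was separated and higher, with 2051, 2261 and 2434 on the Hprt-low arrays, against 736, 818 and 693 on the Hprt-high arrays (1.56), while its neighbour Gpc4 differed by -0.088. Zfp36l3, a zinc finger gene, was separated and lower, with 142, 142 and 157 on the Hprt-low arrays, against 270.4, 285 and 275 on the Hprt-high arrays (-0.82). The others, Usp26, Ccdc160, Mospd1, Rtl8c and Ct55, ranged between -0.35 and 0.52. Beside Eng on chromosome 2, the nearest measured genes were Ak1 (0.16), an adenylate kinase, and Fpgs (0.0089), a folate enzyme. St6galnac4, a sialyltransferase, was separated, with 193, 225 and 210.1 on the Hprt-low arrays, against 109, 119.5 and 115 on the Hprt-high arrays (0.76), although its other probes differed by 0.12 to 0.46. The others, Fam102a, Dpm2, St6galnac6, Cdk9, Ttc16 and Tor2a, ranged between -0.27 and -0.024.

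The labels could be tested within the sets, since that comparison did not form them. With the set as a block, limma called 0 of 17638 features between arrays labelled KO and WT, 0% at an adjusted p under 0.05, and 589 had an unadjusted p under 0.05, of which 270 were higher and 319 lower in KO. The smallest adjusted p was 1.00. Eng differed by -0.079 (SE 0.077, adjusted p = 1.00) between KO and WT within the sets. The smallest unadjusted p among genes higher in KO belonged to Phka2, a phosphorylase kinase subunit, at 0.28 (SE 0.070, adjusted p = 1.00), with Armh4 (0.28) and Zbtb48 (0.27) next. Among genes lower in KO it belonged to Pank3, a pantothenate kinase, at -0.45 (SE 0.085, adjusted p = 1.00), with Mtfmt (-0.29) and Zfp68 (-0.29) next. None of these passed the test.

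Whether the difference between KO and WT itself differed between the sets was tested as an interaction. limma called 0 of 17638 features, 0% at an adjusted p under 0.05, and 862 had an unadjusted p under 0.05, with a smallest adjusted p of 0.889. Without the array labelled WT-1, 2 were called. Mesp1 was among the 3 genes with the smallest p in the negative direction, with an interaction of -0.75 (SE 0.15, adjusted p = 0.889). Its array labelled KO-1 lay below WT-1 and WT-2, at 3105 against 3723 and 3379, and its KO-2 and KO-3 arrays lay above WT-3, at 797 and 849 against 549. The others named by the same rule were Gna12 (-0.73) and Hgs (-0.64) in that direction, and Ccnt2 (0.85), Dido1 (0.71) and Rab26os (0.70) in the other. With 1 array of a label in each set, the interaction rests on few values, and none of these passed the test.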

How the data were processed

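Total RNA of 6 embryoid body samples was isolated with Trizol, passed over columns, treated with DNase and converted to biotin-labelled cRNA, per the labels' protocols. The deposited values are linear intensities, 1 for each probe on each array, and the authors' normalization of them is not given in the sources. A second deposited table has 12 value columns whose names match no sample label. Its values were not used, so no background correction from detection p-values was run, and only its probe symbols and accessions were read.

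Background was corrected by normexp with an offset of 50, followed by log2 transformation, using limma 3.58.1 with R 4.3.3. Probes were kept when above the background limit (95th percentile of a normal background around each array's most frequent intensity, 44.8 to 45.2) on at least 3 arrays. Of 46632 probes, the platform annotation gave 1 gene for 29976 and several for 10, which were not named. The second table named 5247 more, and 11399 stayed unnamed. Of 21548 genes, 21532 were in the RefSeq table (GRCm38.p6). For genes with several probes, the one with the highest mean was used.

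Sets, members and the 31 lists, which share members, were chosen with earlier results of these data known. A gene was named if it was Hprt, Mesp1, Tal1, Etv2, Bmp4, Eng or Xist; among the 15 largest differences per direction without overlap; among the 5 with the widest gap relative to the range within a set; among up to 4 separated members of a list, or the 2 with the largest difference where none was separated; among the 3 smallest p-values per direction of a label test without calls; or among the 5 measured genes on each side of Hprt or Eng. List members outside this rule are given as context, and 1 gene meeting the rule is not reported here. Where a probe was not well above background on all arrays of a set, the fold was bounded with the higher of its own signal and the lowest signal above background. Labels were tested two-sided with limma's lmFit and eBayes, adjusted by Benjamini-Hochberg over all features, with the set as a block, and as an interaction with the set. The steps were tested on simulated data.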

Additional observations from a re-analysis of the deposited data

How the results depend on the processing

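The 300 separated features (194 higher, 106 lower) became 82 (68 higher, 14 lower) at 2-fold, 5124 (2502 higher, 2622 lower) with no fold threshold and 740 (433 higher, 307 lower) when the background peak was subtracted with an offset of 16, which enlarges differences of dim probes. They were 402 (244 higher, 158 lower) with no background correction. Other filters, probe choices, a further quantile step and each array left out gave 284 to 345. Without the arrays labelled KO-1 and WT-3, an alternative chosen after seeing the data, 317 were separated (199 higher, 118 lower). The chromosome 8 median was 0.0910 without those arrays, 0.0968 with no background correction, 0.124 with the peak subtracted, 0.0392 with no filter, 0.0929 with probes above background on all 6 arrays and 0.0661 over every probe, and 0.0729 to 0.0883 with single arrays left out. Among 38 genes followed (the key genes and those with the largest differences or gaps), no separated gene changed direction under these settings, nor did any list median at least 0.1 from 0. Xist, which was not separated, took either sign, from -0.038 to 0.013 with single arrays left out. The trend and robust variance model and array weights left both label tests at 0 calls, and no setting was tried that separates set from slide position. With single arrays left out, the definitive endoderm median ranged from 0.16 to 0.37 and the trophoblast median from 0.077 to 0.20, the cell cycle median from 0.055 to 0.093, and the medians of the globin, hypoxia, stress response, purine, feeder, Y-linked and housekeeping lists, all within 0.1 of 0, took either sign. The interaction gave 0 to 2 calls with single arrays left out, the 2 without the array labelled WT-1, and could not be fitted without KO-1 or WT-3. Eng differed between KO and WT within the sets by -0.213 to 0.0544 with single arrays left out, turning positive without the array labelled KO-1; with probes above background on all 6 arrays it was not measured. Same-numbered arrays correlated at 0.602, -0.289 and 0.523 in their deviations from the label means, so the numbers do not pair the samples; with a replicate block in place of the set, 0 features were called and Eng differed by -0.28, and with both blocks by -0.051. No interaction was fitted with the replicate block.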

Other observations

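Several separated genes outside the lists and the naming rule belong to families described above and were picked after their values were seen, so their number says nothing about those families. Nrp2, the paralogue of Nrp1, gave 258, 274 and 230.3 on the Hprt-low arrays, against 85.6, 83.7 and 73.5 on the Hprt-high arrays (1.41). Plxnd1, a semaphorin receptor of endothelium, gave 161 to 181 on the Hprt-low arrays, against 87.4 to 96.6 on the Hprt-high arrays (0.79), and Vegfc, a ligand of lymphatic and venous endothelium, gave 132 to 149 on the Hprt-low arrays, against 75.4 to 84.1 on the Hprt-high arrays (0.70). Aplnr, the apelin receptor of early mesoderm, gave 470.3 to 486 on the Hprt-low arrays, against 227 to 289.8 on the Hprt-high arrays (0.81). Cxcl12, the ligand of Cxcr4, was lower where its receptor was higher, with 546, 456 and 462 on the Hprt-low arrays, against 855, 964 and 992 on the Hprt-high arrays (-0.91).

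Also picked after their values were seen were 3 epithelial genes that were lower in the Hprt-low set. They say nothing about epithelial genes as a whole. The desmosomal gene Dsp was separated and higher, with 122 to 157 on the Hprt-low arrays, against 71.0 to 80.7 on the Hprt-high arrays (0.72). Spint1, a protease inhibitor of epithelia, gave 879 to 984 on the Hprt-low arrays, against 1639 to 1763 on the Hprt-high arrays (-0.86), Rab25, a small GTPase of epithelial cells, gave 266 to 324 on the Hprt-low arrays, against 556 to 597 on the Hprt-high arrays (-0.90) and Llgl2, a polarity protein, gave 555 to 620.2 on the Hprt-low arrays, against 981 to 1062 on the Hprt-high arrays (-0.73). Eras, an X-linked Ras gene of ES cells, gave 506, 535 and 518 on the Hprt-low arrays, against 1063, 988 and 1067 on the Hprt-high arrays (-0.97). Cyp26a1, which degrades retinoic acid, was higher, with 258 to 384 on the Hprt-low arrays, against 149.6 to 190.0 on the Hprt-high arrays (0.83).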
